A study of Mus musculus with 8 samples.

Results

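The genes described here build, sense, carry, export and store cholesterol in libraries of ribosome-bound RNA from the mouse ventral tegmental area, a midbrain region rich in dopamine neurons. The set holds 32 of the 56691 genes in the deposited count table, and each of the 32 names matched exactly 1 row. They were listed by their known roles, with earlier results of these data known. Of these, 20 belong to synthesis (7 from acetyl-CoA to farnesyl diphosphate, 11 from squalene to cholesterol, 2 in the dolichol side branch) and 12 to the rest (5 sensing, 1 carrier, 4 liver X receptor and efflux, 2 oxidation and storage).

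Male mice of the genotype Ogt flox+/Y (Ogt knockdown, replicates 2, 3, 4 and 5) were compared with Ogt flox-/Y mice (control, replicates 3, 4, 5 and 6), 4 libraries each. Both groups were injected in this region with AAV-TH-Cre, a virus in which the promoter of tyrosine hydroxylase drives Cre, and with AAV-Flex-NBL10, a Cre-dependent HA-tagged ribosomal protein through which bound messages were enriched. The controls therefore carry Cre and the tag as well, and differ by the floxed Ogt allele. Ogt encodes the transferase that adds the sugar O-GlcNAc to proteins, and the comparison asks which messages differ when it is lowered. Age and strain are not given in the sources used here, nor whether each library is a separate animal, so the tests measure only the spread between these libraries, which may be technical.

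As background, adult brain makes its own cholesterol, because lipoproteins of the blood do not cross into it. Astrocytes and oligodendrocytes are strong producers, and neurons both make sterols and receive them from glia. Enzymes of the pathway are switched on together by SREBP-2, a membrane-bound transcription factor that SCAP escorts from the endoplasmic reticulum when sterols are low and that INSIG proteins retain there when sterols are high. Oxidised sterols activate the liver X receptors (LXR), which switch on genes of export such as Abca1, and neurons remove surplus cholesterol by converting it with CYP46A1 to a form that leaves the brain.

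Promoter sequence is shown first for a few members whose values are given further on. SREBP and the CCAAT-binding factor NF-Y are known to act together at synthesis promoters. RefSeq promoter windows (GRCm38.p6, 250 bases before to 50 after a start site) were listed for 27 of the 32 members, and not for Fdps, Fdft1, Sqle, Stard4 and Abcg1. They were searched on both strands for the sterol regulatory element TCACNCCAC and for CCAAT. The latter was present in 16 of 17 synthesis members (94.1%), in 6 of 10 other members (60.0%) and in 41.1% of all 27025 genes of that table. The sterol element in this strict form was present in 1 of the 17, Hmgcs1, at position -137 from the start site, and in 1.44% of all genes. A match is a description of these letters and not a binding site.

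The 150 bases before the start site follow, 5′ to 3′ on the gene's own strand, with matches in capitals on either strand. No match shown overlaps another. Hmgcs1 holds the sterol element, Idi1, Cyp51, Msmo1 and Dhdds are genes that fell, Mvd is a synthesis gene that did not pass the test, and Insig1 and Abca1 hold no match in this stretch.
Hmgcs1 (chr13:119690201-119690350, + strand): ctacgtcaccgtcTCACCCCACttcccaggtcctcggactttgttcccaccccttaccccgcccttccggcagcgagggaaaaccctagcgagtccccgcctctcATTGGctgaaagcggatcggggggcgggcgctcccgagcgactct
Idi1 (chr13:8885456-8885605, + strand): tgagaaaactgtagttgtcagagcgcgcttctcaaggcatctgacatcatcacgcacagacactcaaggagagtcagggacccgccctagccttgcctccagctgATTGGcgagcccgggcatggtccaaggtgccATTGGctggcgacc
Cyp51 (chr5:4104698-4104847, - strand): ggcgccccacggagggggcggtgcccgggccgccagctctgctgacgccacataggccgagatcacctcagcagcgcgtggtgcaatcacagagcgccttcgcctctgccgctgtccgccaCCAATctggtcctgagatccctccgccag
Msmo1 (chr8:64733579-64733728, - strand): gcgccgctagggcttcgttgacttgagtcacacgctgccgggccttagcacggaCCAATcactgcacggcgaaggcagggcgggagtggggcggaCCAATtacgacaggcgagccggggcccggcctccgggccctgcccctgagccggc
Dhdds (chr4:134000883-134001032, - strand): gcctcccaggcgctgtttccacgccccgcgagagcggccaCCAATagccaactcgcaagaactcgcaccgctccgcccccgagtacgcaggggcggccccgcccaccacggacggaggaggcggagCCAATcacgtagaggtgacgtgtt
Mvd (chr8:122443423-122443572, - strand): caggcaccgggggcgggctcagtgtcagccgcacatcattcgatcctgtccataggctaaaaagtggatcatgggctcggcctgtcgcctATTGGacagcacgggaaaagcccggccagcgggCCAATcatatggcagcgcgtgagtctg
Insig1 (chr5:28071262-28071411, + strand): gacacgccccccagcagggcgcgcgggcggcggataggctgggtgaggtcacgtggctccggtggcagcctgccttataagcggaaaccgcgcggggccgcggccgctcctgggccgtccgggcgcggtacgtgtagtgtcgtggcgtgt
Abca1 (chr4:53159896-53160045, - strand): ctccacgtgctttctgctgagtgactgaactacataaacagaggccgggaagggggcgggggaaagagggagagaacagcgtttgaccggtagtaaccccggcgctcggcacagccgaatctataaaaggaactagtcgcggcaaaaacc

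Library totals ran from 49802305 to 147747191 reads, so that 3 reads, taken as the limit of detection for counting error, equal 0.0203 to 0.0602 CPM (counts scaled to the library total). All other levels are CPM scaled also by the trimmed mean of M values (TMM). Ogt itself was lower in every knockdown library (36.0 to 74.4 CPM) than in every control (108.3 to 159.4). Markers of dopamine neurons were present in all libraries (Th 180.1 to 1240.8 CPM). Those of other cells were found too, with no marker of the 7 lists at 0. Tagln, of the smooth muscle list, was near the limit of detection in control replicates 5 and 6 (0.0242 and 0.0212 CPM). Control replicate 3 stood apart from the other controls (correlation of log2 CPM 0.927 to 0.935, against 0.982 to 0.990 among those), with 763.1 CPM of 7 endothelial markers against 9.18 to 16.2 and 664.5 CPM of 8 astrocyte markers against 2244.3 to 3789.9. Knockdown replicate 3 was the least like its group (0.947 to 0.952). Values per library are listed for control replicates 3, 4, 5 and 6 and then knockdown replicates 2, 3, 4 and 5. Fold changes are knockdown over control, and "fell" and "rose" mean an adjusted p under 0.05 in edgeR's quasi-likelihood test over all 19912 genes tested.

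Most synthesis genes were lower in knockdown, while the genes around them split. All 32 members passed the filter on low counts and were tested. Of the 20 synthesis genes 15 fell (75.0%), 0 rose and 5 did not pass, against 15.1% of all genes tested that fell and 28.5% that changed in either direction. None of the 20 was higher at an unadjusted p under 0.05, nor with DESeq2 or limma-voom. Of the 12 other genes 4 fell, 4 rose and 4 did not pass, against 13.4% of all genes that rose. The median log2 fold change was -0.59 for synthesis genes, 0.07 for the others and 0.00 for all genes tested. Without control replicate 3, 15 synthesis genes fell and 4 other genes rose, beside 16.8% of all genes lower and 18.1% higher. Without both libraries numbered 3, left out after the data were seen, 17 synthesis genes fell and 4 other genes rose, beside 23.3% and 23.5% of all genes.

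**Figure D1:**
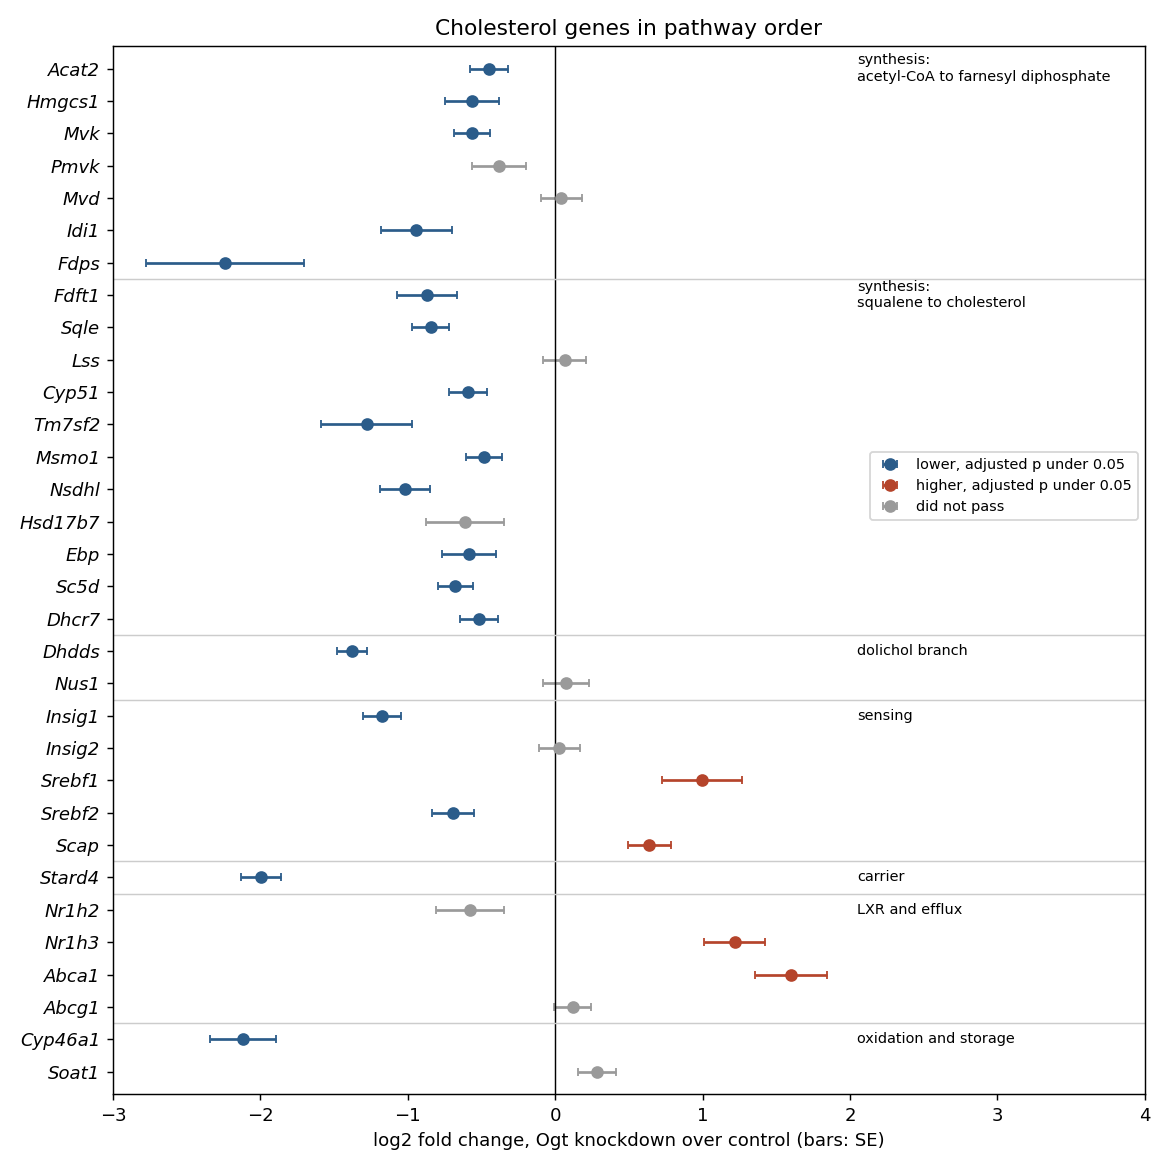
Log2 fold change of each member, Ogt knockdown over control, in pathway order from top to bottom, with the standard error as bars and n = 4 libraries a group. Points of synthesis genes lie left of 0 or close to it (median -0.59), and points right of 0 that pass the test (red) are Srebf1, Scap, Nr1h3 and Abca1.

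Summed over the 20 synthesis genes, control libraries held 1250.9, 1205.6, 1155.1 and 1152.8 CPM and knockdown libraries 744.6, 945.3, 785.7 and 786.7 CPM. The groups did not overlap, and knockdown replicate 3 lay nearest the controls. The 12 other genes summed to 886.5, 917.7, 934.1 and 951.6 CPM in controls and 888.0, 792.1, 923.7 and 850.1 CPM in knockdown, and these ranges overlapped. Gene by gene, all knockdown libraries lay below all controls for 12 of the 20 synthesis genes (60.0%), against 18.0% of all genes tested. Groups of the other 12 were apart for 9, with knockdown below for 5 and above for 4 (17.1% of all genes were above).

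The opening steps make the isoprenoid building block from acetyl-CoA, and 5 of their 7 genes fell. Hmgcs1, which condenses acetoacetyl-CoA to HMG-CoA, had 206.9, 218.3, 188.9 and 188.4 CPM in controls and 115.5, 193.2, 123.8 and 109.9 in knockdown. Knockdown replicate 3 alone reached into the control range. The mean went from 200.6 ± 14.6 to 135.6 ± 38.8 CPM (SD, n = 4), a log2 fold change of -0.57 (SE 0.18, edgeR adjusted p = 0.0424). This call is near the threshold. Leaving out any of 6 libraries ended it, namely controls 4, 5 and 6 and knockdowns 2, 4 and 5 (edgeR adjusted p = 0.0694 to 0.103). Upper quartile scaling (edgeR adjusted p = 0.101), RLE scaling (0.0565) and a filter of 1 CPM in 4 libraries (0.0530) ended it too. Acat2, which joins acetyl-CoA units in the cytosol, fell 1.37-fold (60.5 ± 5.57 to 44.3 ± 5.19 CPM, SD, n = 4; edgeR adjusted p = 0.0263). Its groups did not overlap, but the call was lost when any of the same 6 libraries was left out (0.0550 to 0.0794).

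Of the kinases Mvk and Pmvk and the decarboxylase Mvd that follow, Mvk alone passed the test. Mvk, mevalonate kinase, had 33.3, 38.4, 35.0 and 39.9 CPM in controls and 23.9, 27.2, 23.4 and 24.7 in knockdown (1.48-fold lower, edgeR adjusted p = 0.00791). Pmvk, the next kinase, had 73.1 to 110.9 CPM in controls and 55.9 to 86.0 in knockdown and did not pass (adjusted p = 0.151, and 0.0322 without knockdown replicate 3). Mvd, the decarboxylase, had 23.8, 25.7, 22.9 and 23.8 CPM in controls and 19.55, 26.88, 26.96 and 25.56 in knockdown. Those ranges overlapped, and the log2 fold change was 0.04 (SE 0.14, edgeR adjusted p = 0.856).

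Idi1 and Fdps, which isomerise and join the isoprene units, fell. Idi1 had 10, 20.3, 18.5 and 18.1 CPM in controls and 8.19, 6.57, 10.3 and 9.75 in knockdown (1.92-fold, edgeR adjusted p = 0.0162). Control replicate 3 was the low control and lay within the knockdown range. Fdps, farnesyl diphosphate synthase, was counted from few reads, 69 to 164 per control library and 9 to 38 per knockdown library. Its level went from 1.34 ± 0.634 to 0.280 ± 0.139 CPM (SD, n = 4; 4.72-fold lower, edgeR adjusted p = 0.0121), with no overlap. Neither the fall nor its size is secure for the whole message. Of the 4208 exon bases of Fdps 1124 overlap Gm43738, and reads that touch exons of more than 1 gene were not counted. The values describe only the reads left, and Fdps is among the genes counted here as fallen.

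From squalene to cholesterol, 9 of 11 genes fell. Fdft1, squalene synthase, had 184.9, 120.6, 118.3 and 128.9 CPM in controls and 56.3, 99.95, 68.6 and 77.9 in knockdown (1.83-fold, edgeR adjusted p = 0.0113). The groups were apart, with control replicate 3 far above the other controls. Sqle, squalene epoxidase, a rate-limiting enzyme of the late pathway, had 69.8, 58.9, 55.7 and 53.9 CPM in controls and 32.2, 30.6, 34.7 and 35.4 in knockdown. The groups were well apart, and the log2 fold change was -0.84 (SE 0.13, edgeR adjusted p = 0.00129). Lss, which closes the sterol rings to lanosterol, did not pass. It had 23.02, 24.05, 24.12 and 20.76 CPM in controls and 27.1, 18.8, 25.3 and 25.2 in knockdown (log2 fold change 0.07, SE 0.15, edgeR adjusted p = 0.767).

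**Figure D2:**
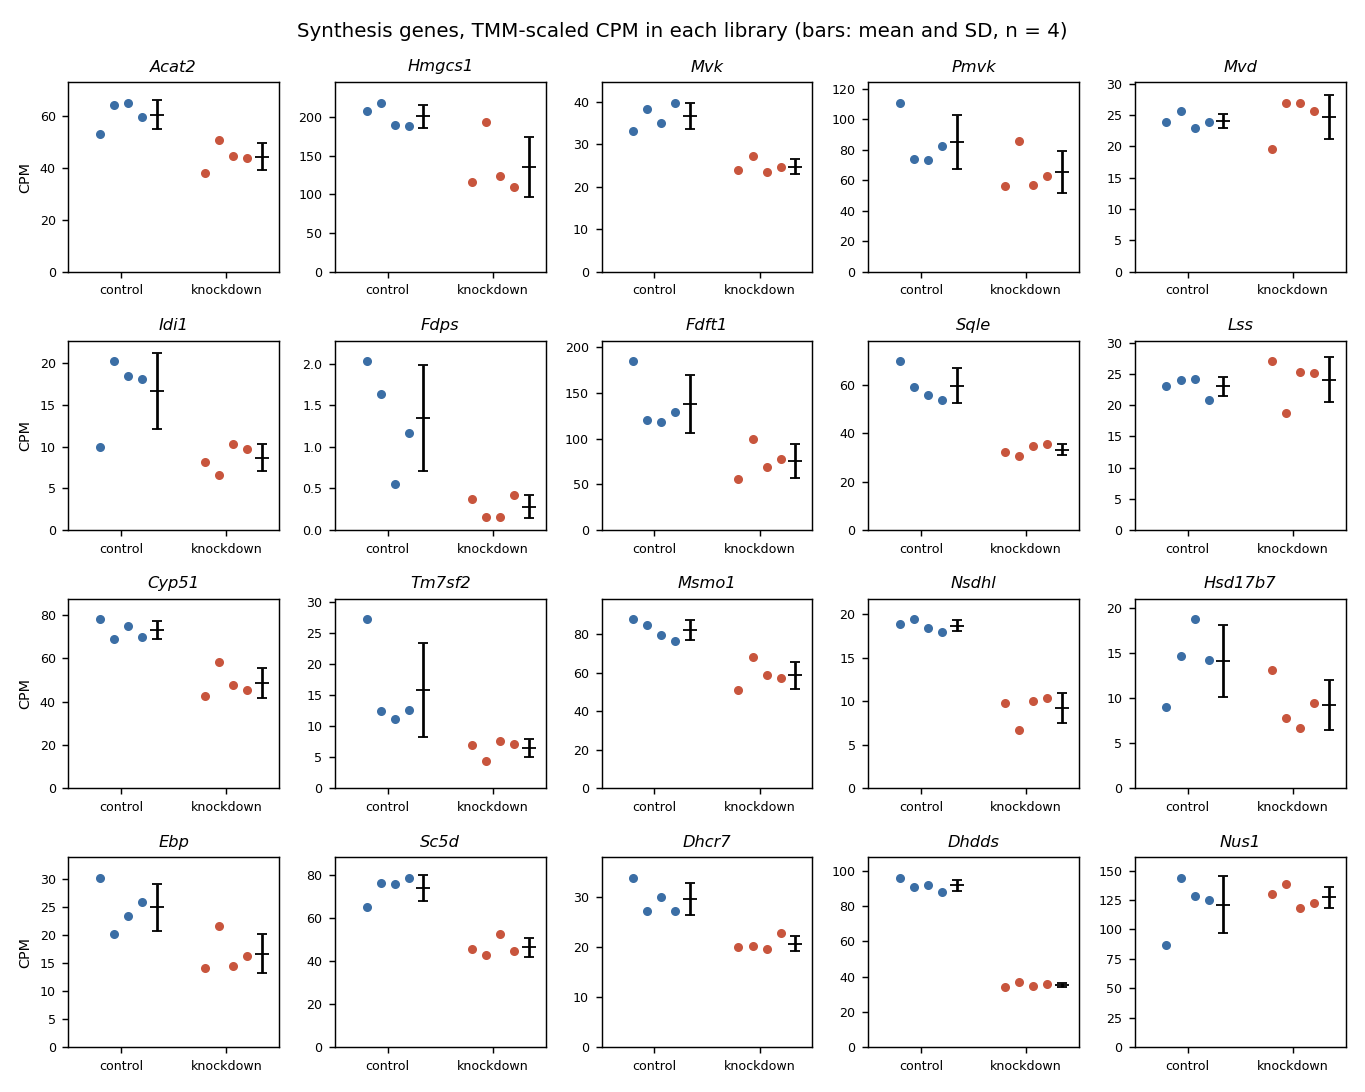
TMM-scaled CPM of the 20 synthesis genes, 1 panel a gene, with a point for each control (blue) and knockdown (red) library and the mean and SD (n = 4) beside them; axes start at 0. Sqle, Nsdhl and Dhdds show groups that are well apart, whereas Mvd, Lss and Nus1 overlap.

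Of the 5 genes whose enzymes trim lanosterol, Cyp51, Tm7sf2, Msmo1 and Nsdhl fell, by 1.40-fold to 2.42-fold, and Hsd17b7 did not pass. Cyp51, lanosterol demethylase, fell 1.51-fold (72.9 ± 4.21 to 48.5 ± 6.93 CPM, SD, n = 4), and Msmo1, a sterol methyl oxidase, fell 1.40-fold (82.1 ± 5.00 to 58.8 ± 7.02 CPM). Tm7sf2, a sterol reductase, had 27.2, 12.5, 11.1 and 12.7 CPM in controls and 7.02, 4.42, 7.56 and 7.15 in knockdown. Its fold of 2.42 leans on control replicate 3, and without that library the log2 fold change was -0.89 instead of -1.28, with the groups apart in either case. Nsdhl, which removes the carboxyl group left by Msmo1, had 18.87, 19.40, 18.41 and 17.99 CPM in controls and 9.86, 6.66, 9.98 and 10.4 in knockdown (2.02-fold, edgeR adjusted p = 0.00211). Knockdown replicate 3 was the lowest library for both Tm7sf2 and Nsdhl. Hsd17b7, the ketone reductase of the same step, had 9.04 to 18.8 CPM in controls and 6.69 to 13.1 in knockdown, and did not pass (adjusted p = 0.114, and 0.0231 without control replicate 3).

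The last isomerase, desaturase and reductase fell too. Ebp, which shifts a sterol double bond, fell 1.498-fold, with overlapping groups (20.2 to 30.2 CPM in controls, 14.1 to 21.7 in knockdown, edgeR adjusted p = 0.0384). Leaving out control 3, 5 or 6, or knockdown 2, 4 or 5, ended that call (edgeR adjusted p = 0.0524 to 0.0936). Sc5d, a sterol desaturase, had 65.4, 76.6, 76.0 and 78.9 CPM in controls and 45.5, 42.8, 52.7 and 44.7 in knockdown. These groups were apart (1.599-fold, edgeR adjusted p = 0.00273), and so were those of Dhcr7, the reductase that yields cholesterol (29.6 ± 3.15 to 20.7 ± 1.48 CPM, SD, n = 4; 1.43-fold, adjusted p = 0.0152).

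The dolichol branch split between its partners. Dhdds and Nus1 encode the catalytic and the regulatory subunit of the enzyme that extends farnesyl diphosphate toward dolichol, the lipid that carries sugars for protein N-glycosylation. Dhdds (chromosome 4, 133696339 to 133728229, GRCm39) had 96.3, 91.0, 92.1 and 88.1 CPM in controls and 34.1, 36.9, 34.7 and 35.7 in knockdown, a log2 fold change of -1.38 (SE 0.10, edgeR adjusted p = 9.13e-05). Spread within a group was small, with an SD of 3.40 CPM in controls and 1.24 in knockdown, and control replicate 3 did not stand out. Nus1 had 86.9, 144.0, 128.5 and 125.1 CPM in controls and 130.3, 138.3, 118.3 and 122.3 in knockdown (log2 fold change 0.07, SE 0.16, adjusted p = 0.767). Per kilobase of exon, Dhdds stood to Nus1 as 0.813 to 1.43 in control libraries and as 0.336 to 0.378 in knockdown libraries, without overlap.

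Of the 5 sensing genes, Insig1 and Srebf2 fell, Srebf1 and Scap rose, and Insig2 did not pass. Insig1, the INSIG gene that SREBP switches on (chromosome 5, 28276361 to 28283660, GRCm39), had 100.3, 135.0, 132.7 and 122.1 CPM in controls and 51.9, 51.0, 60.1 and 54.0 in knockdown, a log2 fold change of -1.18 (SE 0.13, edgeR adjusted p = 0.000393). Insig2, whose message responds less to SREBP, had 77.7, 109.4, 96.1 and 98.4 CPM in controls and 88.2, 114.8, 90.9 and 95.2 in knockdown. These ranges overlapped (log2 fold change 0.03, SE 0.14, adjusted p = 0.905), so the per-kilobase ratio of Insig1 to Insig2 went from 1.45 ± 0.0762 to 0.635 ± 0.101 (SD, n = 4). The pairs for such ratios were chosen after their values were seen and were not tested.

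Srebf2 and Srebf1, the genes of SREBP-2 and of its relative that favours fatty acid synthesis, also diverged. Srebf2 (chromosome 15, 82031382 to 82089580) had 182.3, 187.8, 163.0 and 193.7 CPM in controls and 115.5, 86.4, 130.4 and 116.9 in knockdown (log2 fold change -0.69, SE 0.14, edgeR adjusted p = 0.00609). Srebf1 (chromosome 11, 60089915 to 60113407) had 35.3, 76.6, 101.2 and 92.5 CPM in controls and 144.6, 144.2, 170.7 and 150.1 in knockdown (log2 fold change 0.997, SE 0.27, adjusted p = 0.0211). Groups were apart for both genes. Control replicate 3 was lowest for Srebf1, and the rise was 0.76 on the log2 scale without it and still called. Leaving out control 4, or knockdown 2, 4 or 5, ended the Srebf1 call (edgeR adjusted p = 0.0514 to 0.0615). Per kilobase, Srebf1 was below Srebf2 in every control (ratio 0.247 to 0.792) and above it in every knockdown library (1.597 to 2.13).

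Scap, the escort of both SREBPs, rose. It had 121.1, 79.9, 93.3 and 88.0 CPM in controls and 162.3, 138.8, 154.3 and 140.2 in knockdown (log2 fold change 0.64, SE 0.15, edgeR adjusted p = 0.00970). The groups did not overlap, with control replicate 3 the highest control. Of its 7443 exon bases 985 overlap the gene 5830462I19Rik, and reads there were not counted.

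**Figure D3:**
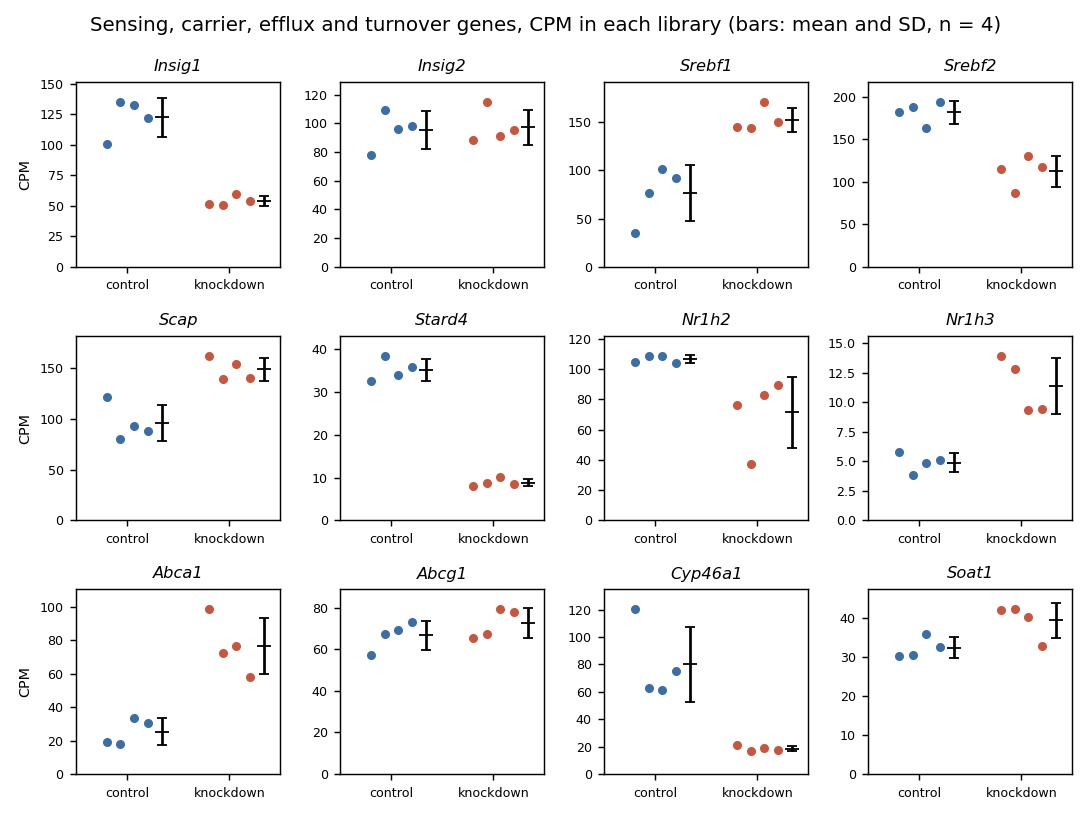
TMM-scaled CPM of the 12 sensing, carrier, efflux and turnover genes, 1 panel a gene, with a point for each control (blue) and knockdown (red) library and the mean and SD (n = 4) beside them; axes start at 0. Insig1, Srebf2, Stard4, Nr1h2 and Cyp46a1 have all knockdown points below all control points (Nr1h2 did not pass the test), Srebf1, Scap, Nr1h3 and Abca1 have them above, and Insig2, Abcg1 and Soat1 overlap.

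Stard4, which carries cholesterol between membranes and is itself a target of SREBP-2, also fell. It had 32.5, 38.4, 33.9 and 35.8 CPM in controls and 8.10, 8.72, 10.03 and 8.37 in knockdown. The groups were far apart, with a log2 fold change of -2.00 (SE 0.13, edgeR adjusted p = 9.13e-05). No library stood out for this gene, and leaving out each in turn kept the adjusted p at 0.000883 or below.

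On the efflux side, an LXR receptor gene and an export pump rose. Nr1h3, which encodes LXR alpha (chromosome 2, 91014406 to 91033179, GRCm39), had 5.77, 3.84, 4.83 and 5.12 CPM in controls and 13.9, 12.8, 9.36 and 9.43 in knockdown (log2 fold change 1.22, SE 0.21, edgeR adjusted p = 0.00257). Nr1h2, which encodes LXR beta and was the more abundant receptor message per kilobase in both groups, had 104.6, 108.5, 109.0 and 104.4 CPM in controls and 76.4, 37.0, 82.8 and 89.8 in knockdown. All knockdown libraries lay below all controls, but it did not pass, with knockdown replicate 3 far below the rest (edgeR adjusted p = 0.0895, and 0.0183 without that library). Abca1, the pump that loads cholesterol onto apolipoproteins (chromosome 4, 53030787 to 53159895), had 19.1, 17.7, 33.5 and 30.7 CPM in controls and 98.8, 72.6, 76.8 and 58.1 in knockdown. The groups were apart, and the rise was 3.03-fold (log2 fold change 1.60, SE 0.24, edgeR adjusted p = 0.00142). Abcg1, another pump and also a known LXR target, had 57.0 to 73.2 CPM in controls and 65.4 to 79.3 in knockdown (log2 fold change 0.12, SE 0.12, adjusted p = 0.510).

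Of the genes that dispose of surplus cholesterol, the neuronal hydroxylase fell. Cyp46a1 (chromosome 12, 108300640 to 108328493, GRCm39) had 120.5, 62.9, 61.3 and 75.3 CPM in controls and 20.9, 16.5, 19.1 and 17.2 in knockdown. Every knockdown library was below every control, and control replicate 3 was the highest. The log2 fold change was -2.12 (SE 0.22, edgeR adjusted p = 0.000311), and -1.86 without control replicate 3. Soat1, which esterifies cholesterol for storage, had 30.2 to 35.9 CPM in controls and 32.8 to 42.2 in knockdown and did not pass (log2 fold change 0.28, SE 0.13, adjusted p = 0.134).

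Levels can be compared between genes only per length. In controls the synthesis genes with the highest level per kilobase of exon were Pmvk (49.7 CPM per kb), Hmgcs1 (43.7) and Fdft1 (33.6), and those with the lowest, Fdps aside, were Lss (2.13), Hsd17b7 (2.78) and Tm7sf2 (3.60). Among the other genes Insig1 (39.6 CPM per kb) was the highest in controls and Nr1h3 (1.94) the lowest. In knockdown Pmvk (38.2) and Hmgcs1 (29.5) still led the synthesis genes, while Insig2 (28.0) and Srebf1 (27.1) led the others and Insig1 stood at 17.5. The exon length used is that of all annotated exons, so a gene with long rare exons appears lower than its main transcript would.

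**Figure D4:**
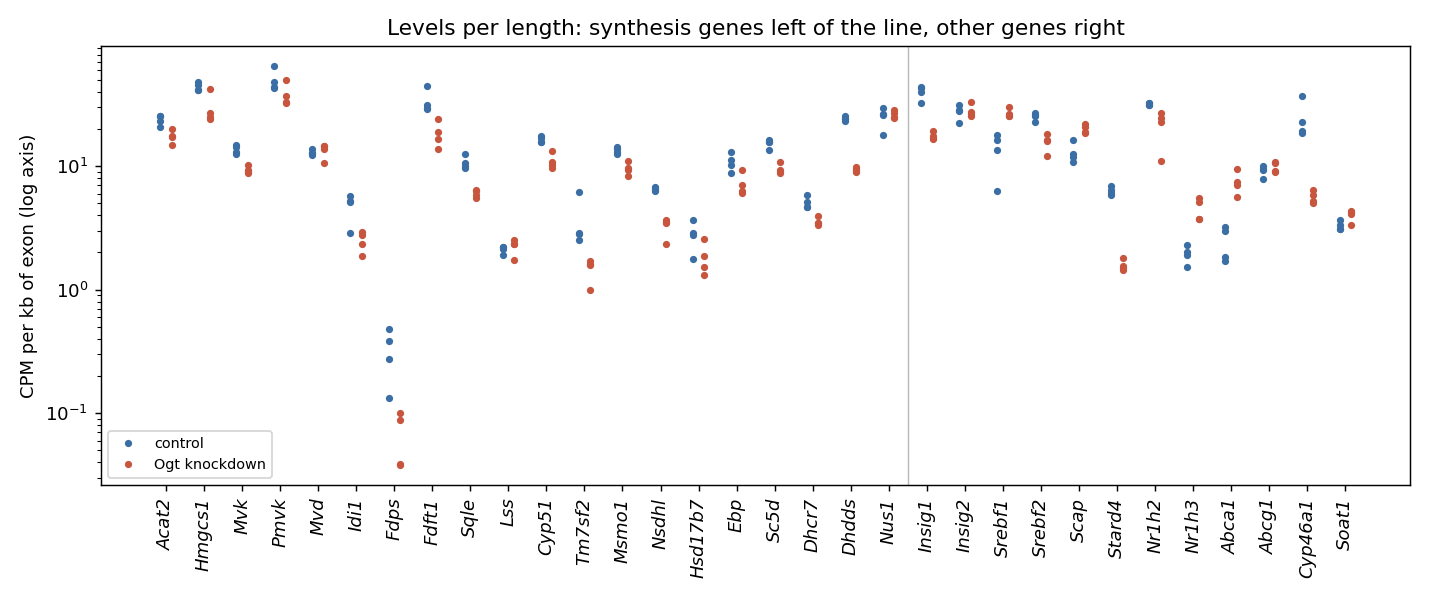
CPM per kilobase of exon of each member in each control (blue) and knockdown (red) library, on a log axis, with synthesis genes left of the line in pathway order. Control means of the synthesis genes run from 49.7 for Pmvk downward, and Fdps sits at the bottom with a control mean of 0.319 CPM per kb.

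Counts in wider lists of the pathway are read against the 15.1% of all genes that fell and the 13.4% that rose. Counts from another fit are read against the shares of all genes in that fit. These were 17% lower and 17.5% higher in DESeq2, and 25% and 26.3% in limma-voom. In edgeR they were 16.8% and 18.1% without control replicate 3, and 23.3% and 23.5% without both libraries numbered 3. Of 12 genes of fatty acid synthesis, a list of known SREBP-1 targets, 3 fell and 3 rose, with a median log2 fold change of 0.35. The number higher depended on the tool, with 5 higher and 3 lower in DESeq2, 8 and 3 in limma-voom, and 6 and 3 in edgeR without both libraries numbered 3. Acly, which makes cytosolic acetyl-CoA from citrate, fell from 231.3 ± 15.97 to 91.8 ± 22.4 CPM (SD, n = 4; 2.52-fold, edgeR adjusted p = 0.000965). Acss2, which makes acetyl-CoA from acetate, and Elovl6, a fatty acid elongase, fell 2.12-fold and 2.02-fold. Me1, the malic enzyme that supplies NADPH, was among those that rose (1.55-fold, adjusted p = 0.0155). 

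None of the 10 genes that cut SREBPs or degrade sterol-regulated proteins passed edgeR's test, and none had an unadjusted p under 0.05. DESeq2 called 0 and limma-voom 2 of them, both higher. Syvn1, a ubiquitin ligase, had the smallest p of the list (1.25-fold lower, adjusted p = 0.192). Of 14 genes in other isoprenoid branches 4 fell and 0 rose, with 0 higher at an unadjusted p under 0.05 and 0 higher with DESeq2 or limma-voom. Dolpp1, a phosphatase that recycles the dolichol carrier, fell 1.63-fold (31.5 ± 1.19 to 19.4 ± 1.87 CPM, SD, n = 4; edgeR adjusted p = 0.00297). Pdss2, Fntb and Ggps1, which serve ubiquinone, farnesylation and geranylgeranyl diphosphate, fell 1.45-fold, 1.43-fold and 1.53-fold. The call of Ggps1 is at the threshold (edgeR adjusted p = 0.0494). Its groups overlapped, with control replicate 3 (40.9 CPM) within the knockdown range (37.5 to 50.8).

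Of 21 genes of lipoprotein uptake and intracellular sterol transport 4 fell (19%) and 3 rose (14.3%), shares near those of all genes. DESeq2 called 5 lower and 3 higher, beside 17% and 17.5% of all genes. In limma-voom 7 were lower and 5 higher, beside 25% and 26.3% of all genes. Nceh1, an ester hydrolase, and the oxysterol-binding relatives Osbpl1a and Osbpl2 fell 1.62-fold, 1.66-fold and 1.71-fold, and Tspo, a mitochondrial sterol-binding protein that is also a marker of reactive glia, rose 3.46-fold (11.5 ± 5.50 to 39.9 ± 16.4 CPM, SD, n = 4; edgeR adjusted p = 0.00918). Of 14 LXR partners, LXR targets and oxysterol enzymes 13 were tested, 4 rose and 1 fell (6 and 1 without control replicate 3, 5 and 2 with DESeq2, 6 and 3 with limma-voom). Cyp7b1, an oxysterol hydroxylase, rose 2.75-fold, and Apod, a lipid carrier, rose 2.47-fold. Lpcat3, a phospholipid enzyme and LXR target, rose 1.99-fold (8.68 ± 0.793 to 17.2 ± 5.27 CPM), and Abcg4, a neuronal relative of Abcg1, fell 2.28-fold (edgeR adjusted p = 0.0128).

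Markers of neurons and glia moved in the same libraries as these genes. Their counts stand beside the 15.1% of all genes that fell and the 13.4% that rose. Of 11 dopamine neuron markers 9 fell and 1 rose, Aldh1a1, named here after its values were seen (722.7 ± 201.0 to 1664.1 ± 258.8 CPM, SD, n = 4). The summed level of the 11 overlapped between groups, with 1965.1 to 3324.3 CPM in controls and 1755.6 to 2354.7 in knockdown. Aldh1a1 alone gave 498.6 to 979.5 CPM of it in controls and 1323.0 to 1951.1 in knockdown. That sum therefore does not describe the 9 markers that fell. All 8 pan-neuronal markers fell, with a summed level of 7055.0 to 7753.8 CPM in controls and 2629.8 to 3232.0 in knockdown. The summed level of 8 astrocyte markers was 664.5 to 3789.9 CPM in controls and 7889.4 to 11984.5 in knockdown (3 of 8 rose, 5 did not pass). Oligodendrocyte markers (5 of 9 rose) summed to 1100.5 to 1669.2 CPM against 1780.6 to 4309.4, and microglia and macrophage markers (7 of 9 rose) to 27.8 to 47.6 CPM against 51.3 to 141.9. Of the 7 endothelial and 6 pericyte and smooth muscle markers none passed, and edgeR's unadjusted p was under 0.05 for 0 and 3. DESeq2 called 0 and 0 of them, and limma-voom 3 and 2 higher, beside 26.3% of all genes higher in limma-voom. Without control replicate 3, however, edgeR called 5 and 3 of them higher, and 6 of the 8 astrocyte markers. In that fit 18.1% of all genes were higher. None of the markers in these lists was at 0 in any library. The part of these shifts in the results for cholesterol genes was not tested. In these enriched libraries, fewer cells of a type, less RNA per cell and a weaker enrichment of tagged ribosomes cannot be told apart.

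**Figure D5:**
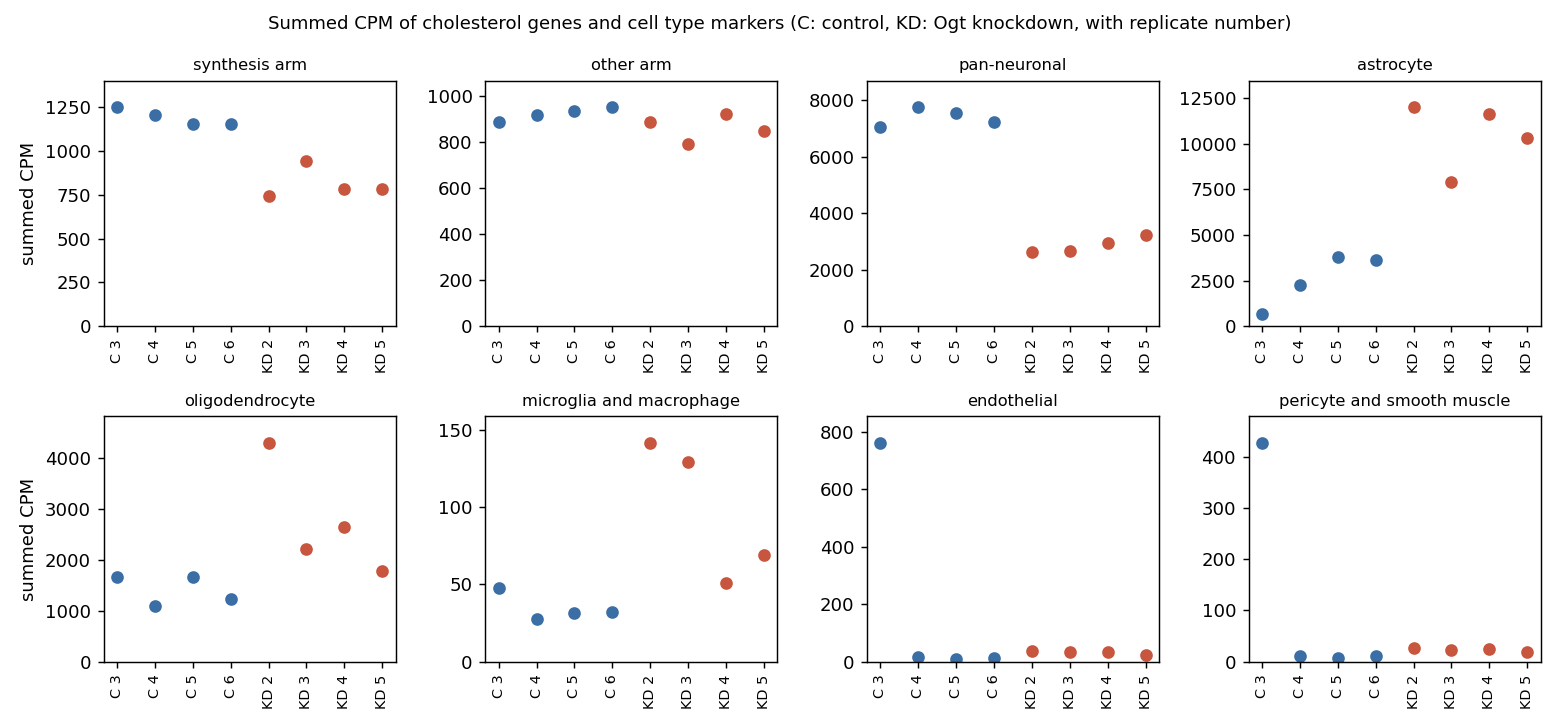
Summed TMM-scaled CPM per library of the 20 synthesis genes, the 12 other members and 6 lists of cell type markers, for control (C, blue) and Ogt knockdown (KD, red) libraries with their replicate numbers; axes start at 0. Synthesis genes and neuronal markers are lower and glial markers higher in all knockdown libraries, and control replicate 3 alone is high in endothelial and pericyte markers.

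Some members share sequence with other genes, which limits how their counts can be read. Of the distinct 50-base stretches in Acat2 transcripts, 39.1% also occur in other genes, Acat3 and Tcp1, and the share was 26.5% for Fdft1, 26.2% for Fdps, 25.3% for Idi1 and 11.6% for Hmgcs1. Exons of Fdft1 overlap Ctsb over 774 of 4116 bases and those of Tm7sf2 overlap Vps51 over 532 of 4403. Counting used no strand, so reads of overlapping genes cannot be told apart and were left out. Dhdds, Insig1, Stard4, Abca1, Nr1h3 and Cyp46a1 share at most 2.17% of such stretches.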

How the data were processed

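Per the file headers, the authors' deposited table holds raw read counts per gene for 8 libraries, made with featureCounts 2.0.3 over GENCODE vM30 exons without options for strand, read pairs or multi-mapping reads, beside an exon length per gene. Per the submitters' processing notes, FastQC, Trimmomatic and STAR were used, and mm10 is named as the build. GENCODE vM30 is on GRCm39, so coordinates printed from the table are GRCm39, and the build of the alignments is a point on which the sources differ. A mismatch between alignment and annotation would miscount genes. Start positions in the count table differ from those on GRCm38 (mm10) for 31 members, and Abca1 is unshifted. The largest shift is 956394 bases, for Nsdhl, which spans 71962163 to 72002120 in the table. Nsdhl was counted with 368 to 2544 reads per library. Mvd, shifted by 726739 bases, had 1229 to 3367 reads. The build of the alignments itself was not tested. Symbols were matched to gene IDs through a GENCODE table (52073 of 56691 IDs). Promoters are RefSeq, GRCm38.p6.

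Counts were tested in R 4.3.3 with edgeR 4.0.16 (TMM, filterByExpr, robust quasi-likelihood F test, group as the only term, Benjamini-Hochberg over 19912 genes, threshold 0.05). The pipeline was tested on simulated data. Other settings tried were upper quartile or RLE scaling, no filter, a filter of 1 CPM in 4 libraries, DESeq2 1.42.0, limma-voom (limma 3.58.1), a replicate block and leaving out each library, and, chosen after seeing the data, leaving out both libraries numbered 3. Text names all 32 members, Ogt, and up to 4 genes with the smallest p of each wider pathway list. Members and lists were chosen with earlier results of these data known. The limit of 3 counts covers counting error only.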

Additional observations from a re-analysis of the deposited data

Results flagged for a closer look

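In 4 of the 64 groups of 4 libraries (32 genes in 2 conditions), 1 library lay far from the other 3 by Dixon's criterion (its gap to the nearest library, over the range, passed the 95% critical value), and chance alone gives about 1 group in 20. Hmgcs1 stood at 193.2 CPM in knockdown replicate 3, against 109.9 to 123.8 in the other knockdown libraries. Nsdhl stood at 6.66 CPM in the same library, against 9.86 to 10.4. Fdft1 stood at 184.9 CPM in control replicate 3, against 118.3 to 128.9 in the other controls, and Tm7sf2 at 27.2 CPM there, against 11.1 to 12.7.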

How the results depend on the processing

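Across 16 alternatives, 0 synthesis genes were called higher. The number of genes called over the whole table was 5668, and it became 10208 with limma-voom, 9565 without both libraries numbered 3 (chosen after seeing the data) and 1258 with the replicate block. With the replicate block, 2 synthesis genes were lower (Fdft1 and Dhdds) and, of the others, 3 lower (Insig1, Stard4 and Cyp46a1) and 2 higher (Nr1h3 and Abca1), beside 3.91% of all genes lower and 2.41% higher. The median log2 fold change of synthesis genes was -0.56 under that block, against -0.59 without it. Only the numbers 3, 4 and 5 occur in both groups, so the block compares groups within these alone and has less power. Whether the shared numbers 3, 4 and 5 mark pairs is not settled, since so few pairs cannot decide it. Their correlations of deviations were 0.104, 0.0987 and 0.0422, against -0.103 to 0.0808 between unlike numbers. Of 6 libraries, 4 correlated best with their own number. Leaving out each library gave 3876 to 7198 genes changed, 12 to 16 synthesis genes lower, and 4 to 5 lower and 3 to 4 higher of the others. The median log2 fold change of synthesis genes was -0.49 with upper quartile scaling, -0.67 with limma-voom, -0.67 without knockdown replicate 3 and -0.68 without both libraries numbered 3. Upper quartile scaling left 12 synthesis genes lower and ended the calls of Acat2, Hmgcs1 and Ebp. RLE scaling and the filter of 1 CPM in 4 libraries ended that of Hmgcs1, and this filter removed Fdps.

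Sign changes of log2 fold change were seen in 4 genes, none of them called, and the cause was not tested. Insig2 was -0.016 with no filter, -0.11 with limma-voom, -0.062 without control replicate 3, -0.062 without knockdown replicate 3 and -0.15 without both. Nus1 was -0.083 with limma-voom, -0.061 without control replicate 3 and -0.099 without both libraries numbered 3. Lss was -0.053 with the replicate block and -0.0092 without knockdown replicate 2. Mvd was -0.0012 without knockdown replicate 3, -0.028 without knockdown replicate 4 and -0.0070 without both libraries numbered 3. Over all single libraries left out, log2 fold changes reached 0.12 for Mvd, 0.17 for Lss, 0.14 for Nus1 and 0.072 for Insig2. Low read numbers limit Fdps most, with 9 counted reads in its lowest library. Reads that touch exons of both Fdps and Gm43738 were not counted.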
